A study of Homo sapiens with 12 samples.

Results

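The genes described here build the vesicle traffic between the endoplasmic reticulum (ER) and the Golgi apparatus. They number 55, chosen by name for their role. Of these 12 belong to the COPII coat and its GTPase cycle, 11 were listed as SNAREs or tether, and 9 belong to the COPI coat. A further 6 are of the ARF GTPase cycle, 15 are cargo receptors and cycling proteins, and 2 are Golgi matrix proteins. Older symbols on the array were matched through their gene identifiers. Of 16922 genes with a named probe, 51 were members, and SEC13, SEC31A, USO1 and KDELR2 had no probe assigned to them. After a filter on dim probes 44 members were tested, among 8783 genes in all. RNA came from LNCaP-S14, a line made from human LNCaP prostate cancer cells (the name the labels give) by stable overexpression of the ubiquitin ligase subunit SKP2, which every group carried. Cells were given 40 µM SMIP004, a small molecule found in a screen on this line, 50 nM BTZ (bortezomib), a proteasome inhibitor, 500 nM camptothecin, a topoisomerase I poison, or 20 µM roscovitine, an inhibitor of cyclin-dependent kinases. DMSO, the vehicle, served as the control, and the study's methods give 24 h for all groups. Each of the 5 groups had 2 biological samples, and each SMIP004 sample was run on 2 technical arrays, which were averaged, so that 12 arrays gave 10 samples of 1 cell line.

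Secretory proteins leave the ER in vesicles coated with COPII. The GTPase SAR1, loaded by PREB on scaffolds of SEC16, recruits SEC23 and SEC24, and SEC24 picks the cargo, often through receptors that cycle between both organelles. At the Golgi, SNARE proteins on vesicle and target fuse the membranes, and the COPI coat, recruited by the GTPases of the ARF family, carries receptors and escaped ER proteins back. The load on this route is tied to protein folding in the ER, and the unfolded protein response (UPR), which the study examined with these arrays, is known to raise many genes of the secretory pathway.

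Levels are log2 values after background correction and quantile normalization, so that a difference of 1 is a 2-fold change, and no probe's level was set against another probe's. A change was called at an adjusted p under 0.05 (limma, Benjamini-Hochberg over all 8783 genes). DMSO and SMIP004 arrays lay on slide 1 and those of BTZ, camptothecin and roscovitine on slide 2, so that for these 3 compounds treatment and slide cannot be told apart in a comparison with DMSO, while SMIP004 against DMSO and BTZ against camptothecin each lie within 1 slide. Mean probe intensity was 473.1 to 801.7 per array, with 8737 to 9909 of 24526 probes detected. The 2 roscovitine samples differed from one another 2-fold or more for 1215 genes, a count that was 1 to 10 within the other groups. They enter the error of every comparison, and counts without them are given beside the main ones. Of 9 measured markers of luminal prostate cells, 8 were detected in both DMSO samples, while the leukocyte genes PTPRC and CD3D, the fibroblast genes COL1A2, COL3A1, DCN and LUM and the endothelial genes PECAM1, CDH5 and KDR were detected on no array. The leukocyte gene CD68 and the endothelial gene VWF were detected on all 12 arrays, the leukocyte gene CD14 on 4 and the fibroblast gene COL1A1 on 8, none of them DMSO (mean log2 level 7.38 with SMIP004 and 5.71 with DMSO). The summed linear level of the luminal markers was 7538 to 7994 in SMIP004 samples, 6302 to 6311 in BTZ samples, 12820 to 12950 in camptothecin samples, 21440 to 21630 in roscovitine samples and 17100 to 17750 in DMSO samples. That of the 4 leukocyte markers with a probe was 253.2 to 254.3 in SMIP004 samples, 569.9 to 652.4 in BTZ samples, 862.2 to 1052 in camptothecin samples, 253.1 to 306.3 in roscovitine samples and 270.4 to 285.1 in DMSO samples. That of 5 fibroblast markers was 289.2 to 296.3 with SMIP004, 259.6 to 326.7 with BTZ, 195 to 204.8 with camptothecin, 153.2 to 179.7 with roscovitine and 150.4 to 187.8 with DMSO. That of 4 endothelial markers was 655.9 to 692.9 with SMIP004, 506.4 to 614.2 with BTZ, 591.6 to 630.2 with camptothecin, 432.1 to 456 with roscovitine and 537.4 to 616.1 with DMSO. In a bulk RNA sample fewer cells of a type and less RNA per cell cannot be told apart. The part of these markers in the results was not tested.

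Most of the route was higher with SMIP004. Of 44 members tested, 36 rose and 1 fell with SMIP004, where 28.7% of all 8783 genes rose and 29.9% fell. LMAN1, MCFD2 and KDELR3, counted among the 36, passed the filter through the SMIP004 arrays alone. The filter thus favoured their rises, which lend no support of their own. The median log2 change of the tested members was 1.53, against -0.02 for all genes tested. Of these members 30 were at least 2-fold higher and 1 at least 2-fold lower, where 1387 and 1401 of all 8783 genes were. Every COPI subunit tested rose (7 of 7), as did 7 of 8 genes of the SNARE list and 7 of 9 COPII genes. So did 4 of 5 genes of the ARF cycle, 9 of 13 cargo receptors and cycling proteins and both Golgi matrix genes. ERGIC1 was the only member called lower. Without the roscovitine samples 38 rose and 3 fell, where 3226 of all 8783 genes rose and 3398 fell. The additional calls were ARFGAP2 and TMED3 (higher) and SEC22C and ERGIC2 (lower). Leaving out 1 SMIP004 sample cost 1 call each time (COPZ1 or ARF1).

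Fewer members were higher with BTZ, and their median change was smaller. With BTZ 28 members rose and 4 fell, where 31.7% of all genes rose and 32.8% fell, with a median of 0.59 for the members and -0.01 for all genes. MCFD2, below background in both BTZ and DMSO samples, is among the 28. The rises were spread over the coats (7 of 9 COPII genes, 5 of 7 COPI subunits), the SNARE list (6 of 8) and the ARF cycle (4 of 5). Of 13 cargo receptors and cycling proteins 4 rose and 3 fell. Camptothecin gave no such rise: 8 members rose and 13 fell, where 31.7% of all genes rose and 31.7% fell, and the median was -0.06. Both shares for camptothecin, 18.2% and 29.5% of the tested members, are below those of all genes. With arrays scaled to a common median in place of quantile normalization, the median of all genes lay at -0.23 for BTZ and -0.30 for camptothecin, the BTZ calls were 19 higher and 6 lower, and the camptothecin calls were 2 higher and 20 lower. Relative to that shift, the median of the members was 0.61 with BTZ and -0.07 with camptothecin. The counts under this scaling have no share of all genes beside them and are not read as a result about the members. Without the roscovitine samples the BTZ counts were 29 higher and 5 lower, where 3383 of all 8783 genes rose and 3452 fell. Those for camptothecin were 9 higher and 15 lower, where 3357 of all genes rose and 3374 fell. Leaving out 1 BTZ or DMSO sample left 22 or 23 higher and 3 or 4 lower with BTZ, and each of SEC24A, SEC24B, SEC24C, SAR1A, SAR1B, COPG1, LMAN1, TMED9, TMED10 and GORASP2 lost its BTZ call at least once. The camptothecin calls were 3 higher and 8 lower without the first DMSO sample, 6 and 9 without the second, and 5 and 8 without either camptothecin sample. Camptothecin calls of SEC24A, SEC24D, STX5, USE1, ARFGAP1, LMAN1, TMED9, TMED10, ERGIC1 and ERGIC2 were kept each time, while those of SAR1B, SEC22C, BET1L, GOSR2, COPA, COPG1, COPZ1, KDELR3, TMED2, ERGIC3 and GOLGA2 were lost at least once.

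**Figure D1:**
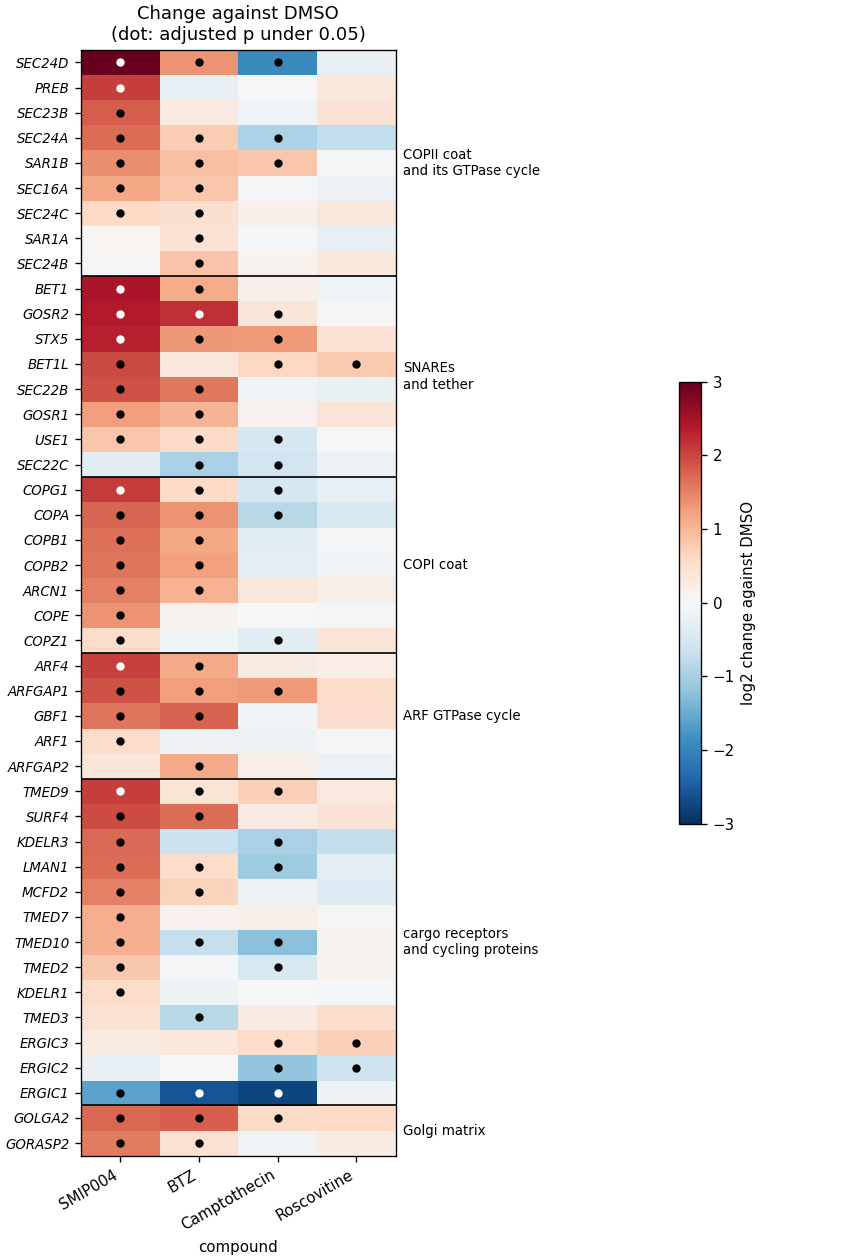
log2 change against DMSO of the 44 tested members (rows, grouped by role and ordered by the SMIP004 change) with SMIP004, BTZ, camptothecin and roscovitine (columns), each the difference of the means of 2 samples. Dots mark an adjusted p under 0.05. The SMIP004 column is red in 40 of 44 rows, the camptothecin column is blue in 23, and fitted values of probes below background in a group (LMAN1, MCFD2, KDELR3) are shown without a bound.

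Promoters of the members were searched for short sequence words tied to the UPR. RefSeq (GRCh38.p14) gave a window from 250 bases before to 50 bases after the gene's start for 46 of the 55 members. The word TGACGTGG, the core of the UPR element (UPRE) that XBP1 and ATF6 are known to bind, was present on either strand in 10 of 46 members (21.7%), against 0.927% of 27305 genes with a promoter of the same length, 1.29% of 7366 tested genes with a promoter and 4.35% of 92 further genes of the same traffic routes. Other words were found in no member: the ER stress response element ERSE (CCAAT and CCACG with any 9 bases between, in 0.0769% of all 35116 promoters), ERSE-II (ATTGG, any 1 base and CCACG, 0.0541%), the cyclic AMP response element TGACGTCA (1.85%) and the amino acid response element core TTGCATCA (0.866%). The letters CCACG that end both ERSE forms also open CCACGTCA, the reverse complement of TGACGTGG, so a UPRE word and an ERSE can overlap. The members with the word were SEC23A, SEC24A, SEC16A, STX5, COPA, COPB1, COPB2, ARF1, GBF1 and KDELR3. Of these 6 held it upstream of the start, and 60 bases around it are shown because they span a COPII coat gene, a SNARE, COPI subunits, an ARF and a cargo receptor. Each is on the gene's strand, with the UPRE word or its reverse complement in capitals.
SEC24A: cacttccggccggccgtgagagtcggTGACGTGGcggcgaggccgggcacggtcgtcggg
STX5: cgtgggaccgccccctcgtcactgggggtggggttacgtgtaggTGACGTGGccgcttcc
COPB1: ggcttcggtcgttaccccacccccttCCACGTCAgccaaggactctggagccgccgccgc
COPB2: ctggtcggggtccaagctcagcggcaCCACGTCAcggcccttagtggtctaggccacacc
ARF1: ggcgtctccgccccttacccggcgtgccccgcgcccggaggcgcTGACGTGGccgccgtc
KDELR3: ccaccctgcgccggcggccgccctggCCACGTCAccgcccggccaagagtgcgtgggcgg
The stretches lie in GRCh38.p14 at SEC24A (chr5:134648580-134648639, plus strand), STX5 (chr11:62832052-62832111, minus strand), COPB1 (chr11:14499826-14499885, minus strand), COPB2 (chr3:139389810-139389869, minus strand), ARF1 (chr1:228082648-228082707, plus strand) and KDELR3 (chr22:38468024-38468083, plus strand). Counted from 0 at the first transcribed base, the word lay at -179 to -172 in SEC24A, -16 to -9 in both STX5 and ARF1, -48 to -41 in COPB1, -46 to -39 in KDELR3 and, for the annotated starts of COPB2, at -196 to -189 and -163 to -156. In COPA, GBF1 and SEC16A the word lay at 5 to 12, 5 to 12 and 15 to 22, within the transcribed part, and in SEC23A it spanned the start itself. COPB2 held a further match at -3 to 4 or 30 to 37, by the start taken. A match of letters is a description and does not show a site in use. All 9 tested members with the word rose with SMIP004 (log2 change 0.55 to 2.33, median 1.66), as did 21 of 28 tested members whose promoter lacked it (median 1.31). KDELR3, among the 9, and LMAN1 and MCFD2, among the 21, passed the filter through the SMIP004 arrays alone, which favoured their rises. These rises lend no support of their own. With BTZ 7 of the 9 rose and none fell, at a median of 1.16, against 16 higher and 3 lower of 28 at a median of 0.47. With camptothecin 1 of the 9 rose and 3 fell, against 4 higher and 7 lower of 28. KDELR3, among the 3, and LMAN1, among the 7, were detected on no camptothecin array. Over all 95 tested genes with the word, 47 rose and 14 fell with SMIP004, 31 and 24 with BTZ, and 30 and 30 with camptothecin. Of 7271 tested genes without it, 2097 rose and 2169 fell with SMIP004, 2333 and 2357 with BTZ, and 2293 and 2318 with camptothecin. With BTZ and camptothecin the share with the word that rose was thus near the share without it. The word was thus present in a larger share of these members than of all genes, and the genes that carry it changed in both directions.

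The largest change of a member was that of SEC24D, an isoform of the COPII subunit that selects cargo. The SEC24D level was 11.50 and 11.60 in SMIP004 samples, 9.92 and 9.88 in BTZ samples, 6.47 and 6.80 in camptothecin samples, 8.28 and 8.38 in roscovitine samples, against 8.47 and 8.66 in DMSO samples. No samples of different groups overlapped, and those of roscovitine lay nearest to DMSO. SEC24D rose with SMIP004 (log2 change 2.99, standard error 0.14, adjusted p = 4.34e-06, a 7.94-fold change) and with BTZ (log2 change 1.34, standard error 0.14, adjusted p = 0.000116) and fell with camptothecin (log2 change -1.93, standard error 0.14, adjusted p = 2.6e-05). BTZ was 9.62-fold above camptothecin on the same slide (log2 difference 3.27, standard error 0.14, adjusted p = 1.66e-06). The other SEC24 isoforms did not share one pattern. Levels of SEC24A were 9.31 and 9.35 in SMIP004 samples, 8.45 and 8.41 in BTZ samples, 6.58 and 6.86 in camptothecin samples, against 7.57 and 7.76 in DMSO samples. SEC24A rose with SMIP004 (log2 change 1.66, standard error 0.20, adjusted p = 0.000227) and BTZ (log2 change 0.76, standard error 0.20, adjusted p = 0.00929) and fell with camptothecin (log2 change -0.95, standard error 0.20, adjusted p = 0.00371), as SEC24D did. For SEC24B the levels were 8.59 and 8.73 in SMIP004 samples, 9.49 and 9.68 in BTZ samples, 8.79 and 8.87 in camptothecin samples, against 8.66 and 8.78 in DMSO samples. SMIP004 and DMSO samples overlapped for SEC24B (log2 change -0.06, standard error 0.28, adjusted p = 0.871), while BTZ samples lay above them (log2 change 0.87, standard error 0.28, adjusted p = 0.0244). Its 3 kept probes gave log2 changes of 0.87, 0.98 and 1.31 with BTZ. SEC24C measured 12.59 and 12.54 in SMIP004 samples, 12.40 and 12.52 in BTZ samples, 12.14 and 12.13 in camptothecin samples, against 11.89 and 12.07 in DMSO samples. Both treated groups were above DMSO (log2 change 0.59, standard error 0.12, adjusted p = 0.00307 with SMIP004).

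The GTPase that starts the coat has isoforms that went apart as well. The SAR1B level was 13.44 and 13.51 in SMIP004 samples, 12.88 and 13.09 in BTZ samples, 12.83 and 13.00 in camptothecin samples, against 12.04 and 12.14 in DMSO samples. SAR1B rose with SMIP004 (log2 change 1.39, standard error 0.22, adjusted p = 0.000935), BTZ (log2 change 0.90, standard error 0.22, adjusted p = 0.00698) and camptothecin (log2 change 0.83, standard error 0.22, adjusted p = 0.011), and a further kept probe gave 1.59, 0.99 and 0.94. Levels of SAR1A were 9.78 and 9.87 in SMIP004 samples, 10.23 and 10.14 in BTZ samples, against 9.77 and 9.74 in DMSO samples. The SAR1A change was 0.07 with SMIP004 (adjusted p = 0.619) and 0.43 with BTZ (adjusted p = 0.0102), whose samples did not overlap DMSO. PREB, the exchange factor that loads SAR1 with GTP at the ER membrane, set SMIP004 apart from all other groups. For PREB the levels were 10.31 and 10.39 in SMIP004 samples, 7.97 and 8.12 in BTZ samples, 8.42 and 8.16 in camptothecin samples, 8.74 and 8.45 in roscovitine samples, against 8.31 and 8.26 in DMSO samples. Only the SMIP004 samples stood above the DMSO samples by more than 1 log2 unit (log2 change 2.07, standard error 0.15, adjusted p = 2.31e-05), and BTZ gave -0.24 (adjusted p = 0.188). SEC23B, the GTPase-activating subunit of the inner coat, was also highest with SMIP004. SEC23B measured 13.89 and 13.74 in SMIP004 samples, 12.32 and 12.20 in BTZ samples, 11.80 and 11.97 in camptothecin samples, against 11.91 and 12.08 in DMSO samples. SEC23B rose with SMIP004 (log2 change 1.82, standard error 0.13, adjusted p = 2.36e-05) and BTZ gave 0.27 (adjusted p = 0.11), with 1.64 and 0.12 by its further kept probe. SEC16A, the scaffold of ER exit sites, rose with SMIP004 by 1.16 and with BTZ by 0.84 (adjusted p = 0.000182 and 0.000786). The only SEC23A probe was detected on no array.

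**Figure D2:**
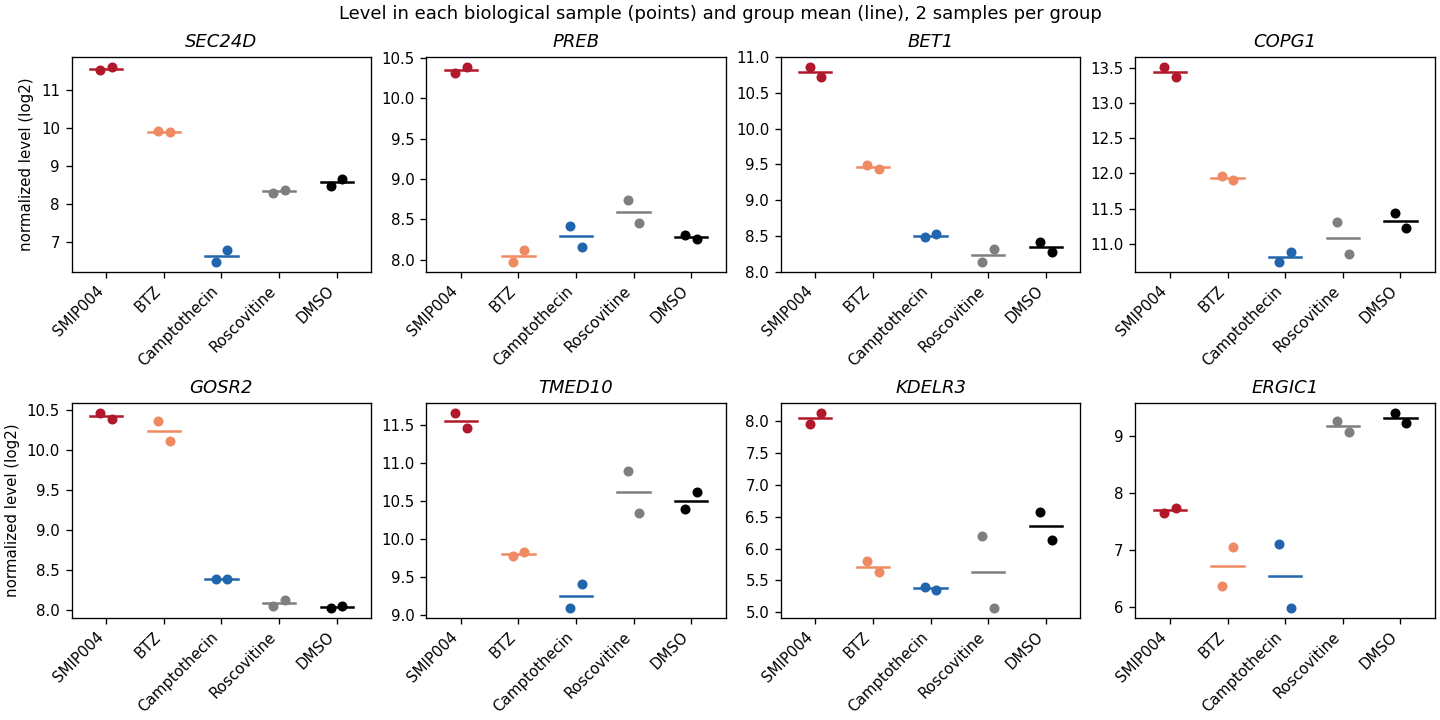
Normalized level (log2) in each biological sample (points, 2 per group) and group mean (lines) for 8 members in SMIP004, BTZ, camptothecin, roscovitine and DMSO samples. SMIP004 samples are the highest of all groups in 7 panels, and both SEC24D samples of camptothecin lie below DMSO, while SMIP004, BTZ and camptothecin samples are all below DMSO for ERGIC1.

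Among the SNAREs, the set that fuses COPII vesicles at the cis-Golgi (STX5, BET1, GOSR2 and SEC22B) all rose with SMIP004 and with BTZ. The BET1 level was 10.86 and 10.73 in SMIP004 samples, 9.50 and 9.43 in BTZ samples, against 8.42 and 8.27 in DMSO samples. BET1, a SNARE of the vesicle, rose with SMIP004 (log2 change 2.45, standard error 0.12, adjusted p = 5.23e-06) more than with BTZ (log2 change 1.12, standard error 0.12, adjusted p = 0.00014), and the difference of both was 1.33 (adjusted p = 0.000109). Levels of GOSR2 were 10.46 and 10.38 in SMIP004 samples, 10.36 and 10.11 in BTZ samples, 8.39 and 8.39 in camptothecin samples, against 8.02 and 8.05 in DMSO samples. GOSR2, also called membrin, rose with both compounds to levels whose difference was not called (log2 difference 0.18, standard error 0.12, adjusted p = 0.252), with changes of 2.38 and 2.20 against DMSO. Its further kept probes gave 1.95 and 1.75 with SMIP004 and 2.21 and 2.20 with BTZ. For STX5 the levels were 13.51 and 13.52 in SMIP004 samples, 12.43 and 12.54 in BTZ samples, 12.45 and 12.47 in camptothecin samples, against 11.23 and 11.15 in DMSO samples. STX5, the syntaxin of the Golgi, whose promoter is among those shown, rose with SMIP004 (log2 change 2.33, standard error 0.16, adjusted p = 1.74e-05), with BTZ by 1.30 and with camptothecin by 1.27, and all 3 of its probes agreed in direction. SEC22B measured 12.18 and 12.09 in SMIP004 samples, 11.83 and 11.76 in BTZ samples, 10.17 and 10.05 in camptothecin samples, against 10.18 and 10.25 in DMSO samples. SEC22B, a SNARE of both directions of transport, rose with SMIP004 (log2 change 1.92, standard error 0.13, adjusted p = 2.03e-05) and BTZ (log2 change 1.58, standard error 0.13, adjusted p = 3.93e-05).

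The other genes of the SNARE list varied more. The SEC22C level was 10.36 and 10.45 in SMIP004 samples, 9.69 and 9.82 in BTZ samples, 10.11 and 10.18 in camptothecin samples, against 10.62 and 10.80 in DMSO samples. SEC22C fell with BTZ (log2 change -0.96, standard error 0.14, adjusted p = 0.000479) and camptothecin (log2 change -0.57, standard error 0.14, adjusted p = 0.00738), and with SMIP004 the change of -0.31 was not called (adjusted p = 0.0858, or 0.0227 without the roscovitine samples). Its other 2 kept probes gave -0.14 and -0.18 with BTZ, not called, so the BTZ fall rests on 1 probe. Levels of BET1L were 8.97 and 8.85 in SMIP004 samples, 7.41 and 7.12 in BTZ samples, 7.77 and 7.34 in camptothecin samples, against 6.82 and 7.05 in DMSO samples. BET1L, a SNARE of traffic within the Golgi, rose with SMIP004 (log2 change 1.98, standard error 0.20, adjusted p = 9.81e-05) and camptothecin (log2 change 0.62, standard error 0.20, adjusted p = 0.0235), and BTZ gave 0.33 (adjusted p = 0.172). For GOSR1 the levels were 7.89 and 7.66 in SMIP004 samples, 7.54 and 7.52 in BTZ samples, against 6.37 and 6.66 in DMSO samples. GOSR1, the partner of BET1L in that complex, rose with SMIP004 (log2 change 1.26, standard error 0.14, adjusted p = 0.000193) and BTZ (log2 change 1.01, standard error 0.14, adjusted p = 0.00048), but a dimmer probe of it, detected on 7 of 12 arrays, gave -0.34 and -0.44, neither called. USE1 measured 8.15 and 8.16 in SMIP004 samples, 7.98 and 7.85 in BTZ samples, 6.82 and 6.78 in camptothecin samples, against 7.39 and 7.27 in DMSO samples. USE1, a SNARE of retrograde vesicles at the ER, rose with SMIP004 (log2 change 0.82, standard error 0.12, adjusted p = 0.000546) and BTZ (log2 change 0.58, standard error 0.12, adjusted p = 0.00263) and fell with camptothecin (log2 change -0.53, standard error 0.12, adjusted p = 0.00484). The probes of STX18 and YKT6 were detected on no array.

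All 7 subunits of the COPI coat tested rose with SMIP004, by log2 changes of 0.55 to 2.11 with a median of 1.60. The COPG1 level was 13.51 and 13.36 in SMIP004 samples, 11.95 and 11.90 in BTZ samples, 10.74 and 10.89 in camptothecin samples, against 11.43 and 11.22 in DMSO samples. COPG1, the gamma subunit, rose most (log2 change 2.11, standard error 0.17, adjusted p = 3.71e-05), with BTZ by 0.60, and fell with camptothecin (log2 change -0.51, standard error 0.17, adjusted p = 0.0293). Levels of COPA were 13.38 and 13.40 in SMIP004 samples, 13.07 and 12.89 in BTZ samples, 10.80 and 10.80 in camptothecin samples, against 11.63 and 11.63 in DMSO samples. COPA, the alpha subunit that recognizes retrieval signals, rose with SMIP004 (log2 change 1.76, standard error 0.27, adjusted p = 0.000811) and BTZ (log2 change 1.35, standard error 0.27, adjusted p = 0.00263) and fell with camptothecin (log2 change -0.83, standard error 0.27, adjusted p = 0.0256), without overlap between these groups and DMSO. For COPB1 the levels were 13.34 and 13.48 in SMIP004 samples, 12.81 and 13.01 in BTZ samples, against 11.71 and 11.80 in DMSO samples. COPB2 measured 13.57 and 13.47 in SMIP004 samples, 13.19 and 13.12 in BTZ samples, against 11.89 and 11.96 in DMSO samples. The beta subunits COPB1 and COPB2, both with a UPRE word upstream, rose by 1.66 and 1.60 with SMIP004 and by 1.16 and 1.23 with BTZ, and neither group overlapped DMSO. ARCN1, the delta subunit, rose by 1.52 with SMIP004 and 1.05 with BTZ (adjusted p = 0.000151 and 0.000808). COPE, the epsilon subunit, rose with SMIP004 (log2 change 1.35, standard error 0.12, adjusted p = 4.8e-05) but gave 0.11 with BTZ (adjusted p = 0.43), while its dimmer probe gave 1.90 and 0.84, both called. The COPZ1 level was 11.16 and 10.98 in SMIP004 samples, 10.54 and 10.36 in BTZ samples, 10.11 and 10.24 in camptothecin samples, against 10.52 and 10.52 in DMSO samples. COPZ1, the zeta subunit, had the smallest rise (log2 change 0.55, standard error 0.12, adjusted p = 0.0061), overlapped DMSO with BTZ and fell with camptothecin (log2 change -0.35, standard error 0.12, adjusted p = 0.0382). The probe of COPZ2 was detected on no array and that of COPG2 on 1 DMSO array alone.

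In the ARF cycle the GTPases differed in size of change. Levels of ARF4 were 13.71 and 13.66 in SMIP004 samples, 12.90 and 12.65 in BTZ samples, 11.78 and 11.95 in camptothecin samples, against 11.64 and 11.62 in DMSO samples. ARF4 rose with SMIP004 (log2 change 2.05, standard error 0.15, adjusted p = 2.25e-05) and BTZ (log2 change 1.15, standard error 0.15, adjusted p = 0.000282), and a further probe gave 2.70 and 1.83. For ARF1 the levels were 13.67 and 13.83 in SMIP004 samples, 12.95 and 13.12 in BTZ samples, 12.99 and 13.12 in camptothecin samples, against 13.20 and 13.19 in DMSO samples. ARF1 rose less with SMIP004 (log2 change 0.55, standard error 0.12, adjusted p = 0.00556), and BTZ gave -0.16 (adjusted p = 0.272), with 0.68 and 0.29 by its further probe. GBF1 measured 9.66 and 9.69 in SMIP004 samples, 9.96 and 9.73 in BTZ samples, 8.01 and 7.99 in camptothecin samples, against 8.16 and 7.99 in DMSO samples. GBF1, the exchange factor that activates ARFs at the cis-Golgi, rose with SMIP004 (log2 change 1.60, standard error 0.13, adjusted p = 3.56e-05) and BTZ (log2 change 1.77, standard error 0.13, adjusted p = 1.99e-05), with a difference of -0.17 that was not called (adjusted p = 0.289). The ARFGAP1 level was 10.40 and 10.27 in SMIP004 samples, 9.73 and 9.66 in BTZ samples, 9.68 and 9.73 in camptothecin samples, against 8.42 and 8.45 in DMSO samples. ARFGAP1, which switches ARF1 off, rose with SMIP004 (log2 change 1.90, standard error 0.14, adjusted p = 2.72e-05), BTZ (log2 change 1.26, standard error 0.14, adjusted p = 0.000152) and camptothecin (log2 change 1.27, standard error 0.14, adjusted p = 0.0002), with 1.33, 1.24 and 0.97 by its further probe. Levels of ARFGAP2 were 9.16 and 9.07 in SMIP004 samples, 9.78 and 9.99 in BTZ samples, 8.89 and 8.98 in camptothecin samples, against 8.76 and 8.76 in DMSO samples. ARFGAP2, a relative of it, rose with BTZ (log2 change 1.13, standard error 0.14, adjusted p = 0.000201), its SMIP004 change of 0.36 was not called (adjusted p = 0.0514, or 0.0101 without the roscovitine samples), and it was lower with SMIP004 than with BTZ (log2 difference -0.77, standard error 0.14, adjusted p = 0.00224). The probe of ARFGAP3 was detected on no array.

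The cargo receptors and cycling proteins varied most. For TMED9 the levels were 13.12 and 13.01 in SMIP004 samples, 11.37 and 11.40 in BTZ samples, 11.66 and 11.73 in camptothecin samples, against 11.00 and 10.97 in DMSO samples. TMED9, of the p24 family of cargo receptors, rose with SMIP004 (log2 change 2.08, standard error 0.13, adjusted p = 1.27e-05), with BTZ by 0.40 and with camptothecin by 0.71. SURF4 measured 12.61 and 12.54 in SMIP004 samples, 12.33 and 12.27 in BTZ samples, 10.82 and 10.90 in camptothecin samples, against 10.52 and 10.72 in DMSO samples. SURF4, a receptor for soluble cargo, rose with SMIP004 (log2 change 1.96, standard error 0.12, adjusted p = 1.13e-05) and BTZ (log2 change 1.68, standard error 0.12, adjusted p = 1.95e-05), and no sample of either overlapped DMSO. The TMED10 level was 11.66 and 11.45 in SMIP004 samples, 9.78 and 9.83 in BTZ samples, 9.09 and 9.41 in camptothecin samples, against 10.39 and 10.61 in DMSO samples. TMED10, another p24 protein, rose with SMIP004 (log2 change 1.06, standard error 0.21, adjusted p = 0.00291) and fell with BTZ (log2 change -0.70, standard error 0.21, adjusted p = 0.0174) and camptothecin (log2 change -1.26, standard error 0.21, adjusted p = 0.00121). The SMIP004, BTZ, camptothecin and DMSO samples did not overlap. The difference of SMIP004 and BTZ, whose sign follows from these opposite changes, was 1.75 (standard error 0.21, adjusted p = 0.000331). The BTZ call of TMED10 was lost at an adjusted p under 0.01 and without the second DMSO sample or either BTZ sample. Levels of TMED2 were 11.92 and 12.02 in SMIP004 samples, 11.10 and 11.10 in BTZ samples, 10.64 and 10.72 in camptothecin samples, against 11.27 and 11.03 in DMSO samples. TMED2, which pairs with TMED10, rose with SMIP004 (log2 change 0.82, standard error 0.14, adjusted p = 0.0016), overlapped DMSO with BTZ and fell with camptothecin (log2 change -0.47, standard error 0.14, adjusted p = 0.0199). For TMED3 the levels were 13.61 and 13.49 in SMIP004 samples, 12.18 and 12.33 in BTZ samples, against 13.06 and 13.12 in DMSO samples. TMED3 fell with BTZ (log2 change -0.84, standard error 0.17, adjusted p = 0.00342), and its SMIP004 change of 0.46 was not called (adjusted p = 0.0509, or 0.00207 without the roscovitine samples). TMED7 rose with SMIP004 by 1.10 (adjusted p = 0.000573).

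KDELR3 measured 7.96 and 8.13 in SMIP004 samples, 5.80 and 5.63 in BTZ samples, 5.40 and 5.35 in camptothecin samples, against 6.57 and 6.13 in DMSO samples. KDELR3, a receptor that returns ER proteins bearing the KDEL signal, was detected on all 4 SMIP004 arrays, on no BTZ or camptothecin array and on 1 of 2 DMSO arrays. KDELR3 rose with SMIP004 (log2 change 1.69, standard error 0.33, adjusted p = 0.00279) and was at least 2.32-fold higher with SMIP004 than with BTZ (adjusted p = 0.000789). Such a bound sets the mean of the brighter group against, on each array of the undetected group, the higher of that array's lowest detected signal and the probe's own. Against DMSO, camptothecin was at least 1.03-fold lower (adjusted p = 0.0306). Both kept KDELR3 probes rose with SMIP004, by 1.69 and 2.08, while with camptothecin the second gave -0.61, which was not called. The KDELR1 level was 10.67 and 10.70 in SMIP004 samples, 9.88 and 10.08 in BTZ samples, against 10.15 and 10.13 in DMSO samples. KDELR1 rose less with SMIP004 (log2 change 0.55, standard error 0.12, adjusted p = 0.00501), and BTZ gave -0.16 (adjusted p = 0.284). Levels of LMAN1 were 7.95 and 8.20 in SMIP004 samples, 7.15 and 6.76 in BTZ samples, 5.45 and 5.23 in camptothecin samples, against 6.48 and 6.32 in DMSO samples. LMAN1, also called ERGIC-53, the lectin that carries coagulation factors V and VIII in the human, rose with SMIP004 (log2 change 1.67, standard error 0.19, adjusted p = 0.00018) and BTZ (log2 change 0.55, standard error 0.19, adjusted p = 0.0317) and was at least 1.07-fold lower with camptothecin, where no array detected it (adjusted p = 0.00171). Its partner MCFD2 was detected on all 4 SMIP004 arrays and on no other. For MCFD2 the levels were 7.58 and 7.70 in SMIP004 samples, 6.75 and 6.87 in BTZ samples, against 6.17 and 6.11 in DMSO samples. It was at least 2.26-fold higher with SMIP004 than with DMSO (adjusted p = 3.66e-05), and BTZ, though called higher than DMSO, has no fold because neither group was above background. LMAN2 was detected on 2 of 4 SMIP004 arrays and on no other, and was not tested.

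None of the 3 ERGIC proteins, which cycle through the compartment between ER and Golgi, was called higher with SMIP004 by its brightest probe, the one that stands for each gene here. ERGIC1 measured 7.65 and 7.74 in SMIP004 samples, 6.38 and 7.06 in BTZ samples, 7.10 and 5.99 in camptothecin samples, 9.26 and 9.07 in roscovitine samples, against 9.40 and 9.22 in DMSO samples. Its probe was detected on all 4 SMIP004 arrays, 1 of 2 BTZ arrays, 1 of 2 camptothecin arrays and all roscovitine and DMSO arrays, so the lower BTZ and camptothecin values are partly below background. ERGIC1 fell with SMIP004 (log2 change -1.62, standard error 0.35, adjusted p = 0.0048), BTZ (log2 change -2.59, standard error 0.35, adjusted p = 0.000369) and camptothecin (log2 change -2.77, standard error 0.35, adjusted p = 0.000347), and no sample of these 3 groups reached the roscovitine or DMSO samples. A dimmer kept probe of ERGIC1 gave 0.16 with SMIP004, which was not called, and -1.02 with BTZ and -1.39 with camptothecin, which were. The fall with SMIP004 therefore rests on 1 of 2 probes, and those with BTZ and camptothecin on both. The ERGIC2 level was 9.07 and 8.97 in SMIP004 samples, 9.16 and 9.35 in BTZ samples, 8.09 and 8.08 in camptothecin samples, 8.63 and 8.70 in roscovitine samples, against 9.22 and 9.33 in DMSO samples. ERGIC2 fell with camptothecin (log2 change -1.19, standard error 0.12, adjusted p = 0.000124) and roscovitine (log2 change -0.61, standard error 0.12, adjusted p = 0.033), while SMIP004 and BTZ gave -0.25 and -0.02. Levels of ERGIC3 were 12.06 and 11.98 in SMIP004 samples, 12.08 and 12.06 in BTZ samples, 12.43 and 12.21 in camptothecin samples, 12.35 and 12.59 in roscovitine samples, against 11.64 and 11.88 in DMSO samples. ERGIC3 rose with camptothecin (log2 change 0.56, standard error 0.15, adjusted p = 0.0105) and roscovitine (log2 change 0.71, standard error 0.15, adjusted p = 0.0349), and SMIP004 gave 0.26 (adjusted p = 0.154). Its second kept probe gave 0.93 with SMIP004 and 0.80 with BTZ, both called, so the probes of this gene differ on SMIP004 and BTZ.

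Both Golgi matrix genes rose with SMIP004. For GOLGA2 the levels were 9.18 and 8.89 in SMIP004 samples, 9.13 and 9.08 in BTZ samples, 7.75 and 8.04 in camptothecin samples, against 7.30 and 7.34 in DMSO samples. GOLGA2, the tether GM130, rose with SMIP004 (log2 change 1.72, standard error 0.18, adjusted p = 0.000133), BTZ (log2 change 1.79, standard error 0.18, adjusted p = 8.95e-05) and camptothecin (log2 change 0.57, standard error 0.18, adjusted p = 0.024). GORASP2 measured 11.82 and 11.87 in SMIP004 samples, 10.78 and 10.73 in BTZ samples, 10.14 and 10.24 in camptothecin samples, against 10.36 and 10.23 in DMSO samples. GORASP2, a stacking protein, rose with SMIP004 (log2 change 1.55, standard error 0.14, adjusted p = 5.48e-05) and, by less, with BTZ (log2 change 0.46, standard error 0.14, adjusted p = 0.0184).

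**Figure D3:**
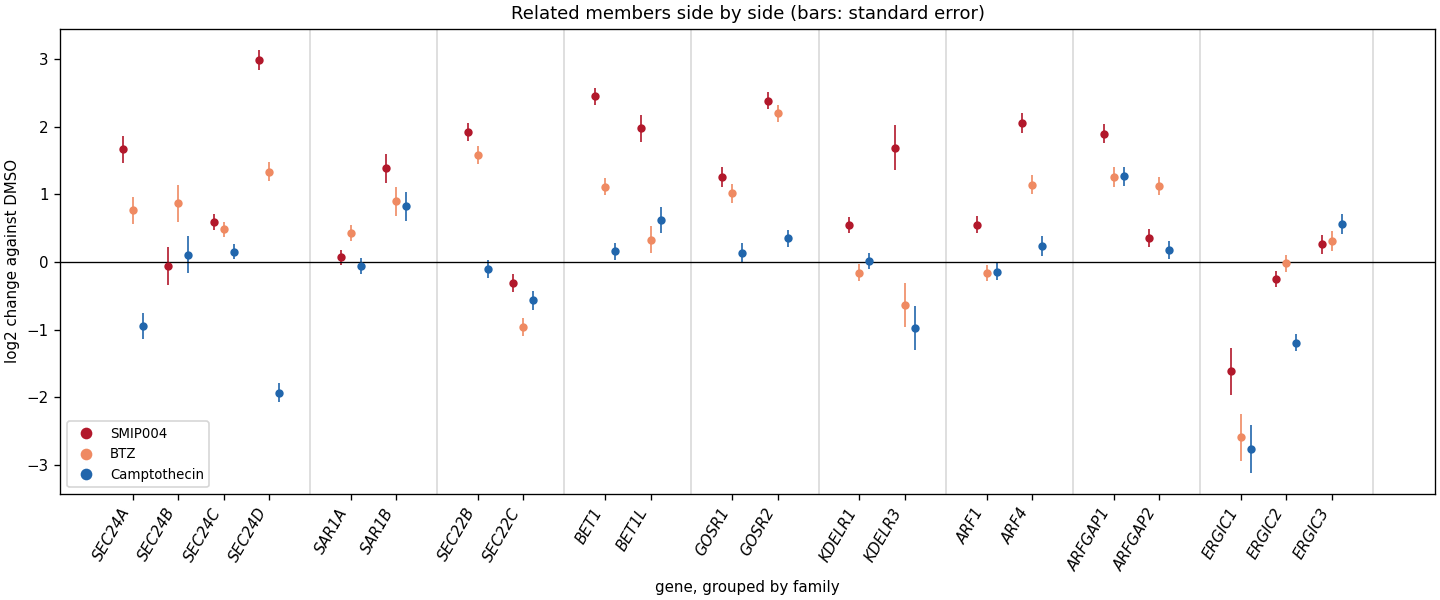
log2 change against DMSO with SMIP004, BTZ and camptothecin (points, with standard errors from the fit) for related members set side by side. SEC24A and SEC24D part from SEC24B, SAR1B from SAR1A, SEC22B from SEC22C and KDELR3 from KDELR1 in the size or the sign of the change.

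Across SMIP004, BTZ and camptothecin the called directions fell into 13 patterns. The same DMSO samples enter all 3 comparisons, so the patterns are counts and no test of likeness. They were counted for the members only, with no share of all genes beside them. Most frequent, with 13 members, was a call of higher with SMIP004 and BTZ and no call with camptothecin (SEC24C, SEC16A, SEC22B, BET1, GOSR1, COPB1, COPB2, ARCN1, ARF4, GBF1, MCFD2, SURF4 and GORASP2). For MCFD2 the BTZ call lies between groups that were both below background, shows no measured rise, and was lost with all 12 arrays fitted with a within-sample correlation. Another 6 rose with all 3 compounds (SAR1B, STX5, GOSR2, ARFGAP1, TMED9 and GOLGA2), and 6 rose with SMIP004 and BTZ and fell with camptothecin (SEC24A, SEC24D, USE1, COPA, COPG1 and LMAN1). A further 6 were called higher with SMIP004 alone (SEC23B, PREB, COPE, ARF1, KDELR1 and TMED7), and COPZ1, KDELR3 and TMED2 rose with SMIP004 and fell with camptothecin. KDELR3 and LMAN1 were detected on no camptothecin array and on 1 of 2 DMSO arrays, and LMAN1 on 1 of 2 BTZ arrays. A second kept probe of KDELR3 gave -0.61 with camptothecin, which was not called. By its dimmer probe COPE was also called higher with BTZ (0.84) and camptothecin (0.58). The further probe of SEC23B was called lower with camptothecin (-0.34). SEC24B, SAR1A and ARFGAP2 were called higher with BTZ alone. The other 7 patterns held 1 gene each: TMED10 (higher with SMIP004, lower with BTZ and camptothecin), BET1L (higher with SMIP004 and camptothecin), ERGIC1 (lower with all 3), SEC22C (lower with BTZ and camptothecin), TMED3 (lower with BTZ), ERGIC3 (higher with camptothecin) and ERGIC2 (lower with camptothecin).

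SMIP004 against BTZ, tested directly, put 28 members higher and 3 lower with SMIP004, where 24.6% of all genes were higher and 24.5% lower, and the median difference was 0.68 against -0.02 for all genes. The 2 compounds lay on different slides, so compound and slide cannot be told apart here. LMAN1, MCFD2 and KDELR3, which passed the filter through the SMIP004 arrays alone, are among those higher with SMIP004. Of the COPI subunits 6 of 7 were higher with SMIP004, and of the cargo receptors and cycling proteins 10 of 13 were higher and none lower (median 0.97). Among members detected in both groups, PREB (log2 difference 2.31, standard error 0.15, adjusted p = 2.3e-05), TMED10 (given above), TMED9 (log2 difference 1.68, standard error 0.13, adjusted p = 4.8e-05), SEC24D (log2 difference 1.65, standard error 0.14, adjusted p = 7.92e-05), BET1L (log2 difference 1.65, standard error 0.20, adjusted p = 0.000351), SEC23B (log2 difference 1.55, standard error 0.13, adjusted p = 7.01e-05) and COPG1 (log2 difference 1.51, standard error 0.17, adjusted p = 0.000272) had the largest differences. KDELR3, not above background with BTZ, has only its bound of at least 2.32-fold. SEC24B (-0.93), ARFGAP2 (-0.77) and SAR1A (-0.36) were lower with SMIP004 than with BTZ. Of these 3 calls 1, that of ARFGAP2, was left with arrays scaled to a common median, at an adjusted p under 0.01 or without either SMIP004 or either BTZ sample. For GOSR2, GOSR1, USE1, SEC22B, SEC16A, SEC24C, SAR1B, COPA, GBF1, SURF4, ERGIC2, ERGIC3 and GOLGA2 the difference was not called. Those differences lay between -0.23 and 0.49, with standard errors of 0.12 to 0.27, which does not show the compounds to act alike on them. Without the roscovitine samples 33 were higher and 3 lower, where 3022 of all 8783 genes were higher and 3105 lower.

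**Figure D4:**
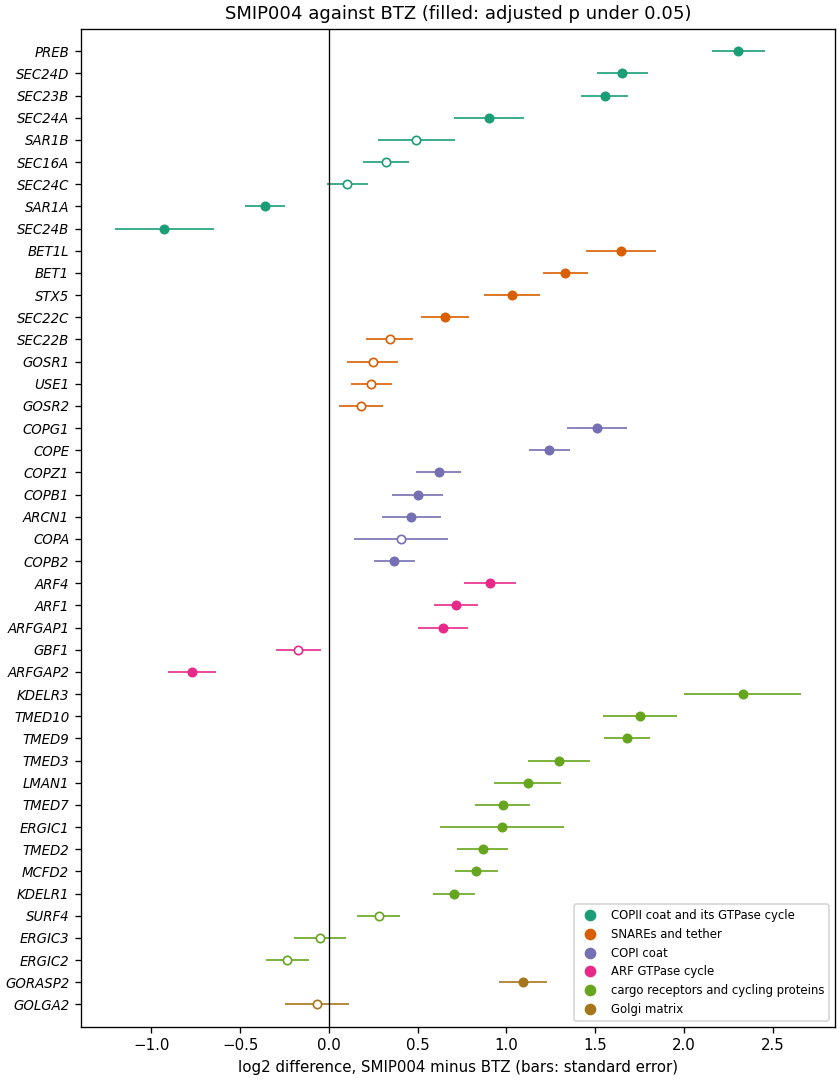
log2 difference between SMIP004 and BTZ (points, with standard errors) for the 44 tested members ordered within each role, with filled points for an adjusted p under 0.05. 37 of 44 points lie right of 0, with PREB farthest among members detected in both groups. KDELR3 and MCFD2 are fitted values against BTZ arrays below background and have no rank, and SEC24B, ARFGAP2 and SAR1A are the filled points on the left.

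BTZ against camptothecin lies within slide 2. With BTZ 28 members were higher and 2 lower than with camptothecin, where 32.8% of all genes were higher and 32.7% lower, and the median difference was 0.63 against 0.01 for all genes. MCFD2 is among the 28, though no array of either group detected it, so it shows no measured difference. SEC24D led, followed by COPA (log2 difference 2.18, standard error 0.27, adjusted p = 0.000175), GOSR2 (log2 difference 1.85, standard error 0.12, adjusted p = 8.07e-06), GBF1 (log2 difference 1.84, standard error 0.13, adjusted p = 9.01e-06), SEC24A (log2 difference 1.71, standard error 0.20, adjusted p = 0.000122) and SEC22B (log2 difference 1.68, standard error 0.13, adjusted p = 1.76e-05). LMAN1 was at least 1.57-fold higher with BTZ (adjusted p = 0.000132). TMED3 (log2 difference -1.08, standard error 0.17, adjusted p = 0.000789) and SEC22C (log2 difference -0.39, standard error 0.14, adjusted p = 0.0327) were lower with BTZ. The other 2 kept probes of SEC22C gave 0.25 and 0.32, neither called, the mean of its kept probes gave 0.06, and the call was lost with arrays scaled to a common median, at an adjusted p under 0.01 and without any 1 SMIP004, BTZ or camptothecin sample. Without the roscovitine samples 30 were higher and 3 lower, where 3483 of all 8783 genes were higher and 3495 lower. MCFD2 and KDELR3, below background in both groups, are among the 30.

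The members that fell with camptothecin had a longer median span, as RefSeq (GRCh38.p14) gives it, than those that rose, and the ranges overlapped. The median was 43.8 kb (4.47 to 118 kb) for the 13 that fell, 18.6 kb (4.48 to 52.7 kb) for the 8 that rose and 30.6 kb for the 23 not called. Span and change had a Spearman's rho of -0.37 across the 44 members with camptothecin, against -0.08 with SMIP004 and 0.16 with BTZ. It was -0.29 with camptothecin across the 8778 tested genes with a span. These correlations run across genes measured in the same arrays, which are not independent replicates, and carry no test.

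Few members were called with roscovitine, as few genes were in all. Of 44, 2 rose (BET1L and ERGIC3, 4.55%) and 1 fell (ERGIC2, 2.27%), where 3.48% of all genes rose and 4.19% fell. The 2 roscovitine samples differed from one another 2-fold or more for 1215 genes, so few calls do not show that few members changed. The median against DMSO was 0.01 in the first roscovitine sample and -0.03 in the second, and no member was 2-fold higher in either, while 2 were 2-fold lower in the second. All 3 calls were lost when any 1 sample of another group was left out, and the number of calls also changed when either roscovitine sample was left out.

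Further genes of the same routes were counted by list. Of 93 tested, 54 rose and 9 fell with SMIP004 (58.1% and 9.68%, against 28.7% and 29.9% of all genes, median 0.60). With BTZ 47 rose and 21 fell (50.5% and 22.6%, against 31.7% and 32.8%, median 0.32). With camptothecin 30 rose and 19 fell (32.3% and 20.4%, against 31.7% and 31.7%, median 0.19), so the share that rose was near that of all genes. Golgins rose most often with SMIP004 (11 of 12), led by TMF1 (log2 change 2.35) and GOLGA4 (1.67). Of the Dsl1 tether, SM proteins and ER fusion factors 8 of 10 rose with SMIP004, BNIP1, a SNARE of the ER, by 1.92 and VAPA by 1.91, and 8 of 10 also rose with BTZ. The RAB1 and RAB2 group had 6 of 7 higher, RAB2B by 1.16 and RAB1A by 1.06, with RAB1B lower (-0.89). Of COPII accessory genes 10 rose and 1 fell among 15, with YIPF5 at 1.68, MIA2 at least 1.71-fold higher and BCAP31 at -0.43. COG, the tether of transport within the Golgi, had 5 of 7 higher, COG1 by 1.51 and COG6 by 1.33. Of TMED and KDEL receptor relatives 2 of 4 rose, TMED5 by 1.99 and LMAN2L by 0.55, and of 5 further ARF family genes ARFGEF2 rose (1.65) and ARF3 fell (-0.66). TRAPP, a tether with many subunits, had 4 higher and 2 lower of 13 (30.8% higher, near the 28.7% of all genes), with TRAPPC4 at 0.76 and TRAPPC2L at -0.85. The clathrin adaptors of the late Golgi and plasma membrane, a later stage of the route, had 7 higher and 4 lower of 20, with AP3D1 at 1.45 and AP2B1 at 1.06.

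Of 7 tested genes for transcription factors of the UPR and related stress pathways, 6 rose with SMIP004 and none fell, 5 rose and 2 fell with BTZ, and 1 rose and 4 fell with camptothecin. Among all genes 28.7% rose and 29.9% fell with SMIP004, 31.7% and 32.8% with BTZ, and 31.7% and 31.7% with camptothecin. ATF6 rose with SMIP004 (1.96) and BTZ (1.48) and fell with camptothecin (-1.40). XBP1 gave 1.63, 0.85 and -1.20 for the same compounds, all called. DDIT3, which encodes CHOP, rose with all 3 (5.77, 5.11 and 4.02), and CREB3L2 rose with SMIP004 (1.03) and fell with BTZ (-0.42) and camptothecin (-2.18).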

How the data were processed

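RNA was hybridised to Illumina HumanRef-8 version 2 arrays, 1 colour, 12 arrays. The authors deposited a raw signal intensity and a detection p-value per probe and array, and, in a second table, log2 values normalized by the authors, which served as an alternative. Background correction by normal-exponential convolution, guided by the detection p-values, was followed by quantile normalization (neqc, offset 16, limma 3.58.1 in R 4.3.3). Of 24526 probes, 21834 had 1 gene in the platform annotation and 2692 were not named, and 99.9% of the gene identifiers matched the current table. A probe was kept if, in 1 group or more, all arrays had a detection p under 0.01 (10149 probes), and the brightest kept probe stood for its gene. Both technical arrays of each SMIP004 sample, which differed by a median of 0.07 and 0.10 log2 units over the members, were averaged. A linear model over all 5 groups with limma's moderated test gave log2 differences, and p-values were adjusted by Benjamini-Hochberg over 8783 genes, with 5 residual and 2.95 prior degrees of freedom. With 2 biological samples of 1 line per group, p-values measure the spread between these samples. The number of arrays limits the precision.

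The members and the lists of further genes were chosen with earlier results of these data known. Values per sample were given for the 3 tested members of each role with the largest absolute SMIP004 change and the 2 with the largest BTZ change, for both Golgi matrix genes, for every member called lower or in opposite directions, and for sets of related genes. Of further genes, the 2 largest rises and falls of a list with SMIP004 could be named, while XBP1 and CREB3L2 were named outside this rule. The alternatives were the authors' values, scaling to 1 median, another offset, other filters, the mean of kept probes, all arrays with an estimated within-sample correlation, 2 groups at a time, a trended fit, stricter calls, a block for the replicate number and leaving out samples. Columns not matched to a sample numbered 0. Promoters and gene spans came from RefSeq tables of GRCh38.p14. Figures were drawn with matplotlib 3.10.9 in Python 3.11.15.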

Additional observations from a re-analysis of the deposited data

Results flagged for a closer look

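TMED10 was called higher with SMIP004 and lower with BTZ. It rose by 1.06 on the log2 scale with SMIP004 and fell by 0.70 with BTZ, and the direct comparison of both groups, which lie on different slides, gave a difference of 1.75 (standard error 0.21, adjusted p = 0.000331, limma). The sign of that difference follows from the opposite calls, which share the DMSO samples. BTZ and DMSO lie on different slides as well. The BTZ call was lost at an adjusted p under 0.01 and without the second DMSO sample or either BTZ sample.

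Members called higher with BTZ and lower with camptothecin were compared directly on their shared slide. Both calls were made against the same DMSO samples, so the selection had set the sign of each difference. The values therefore give sizes and no further support. The log2 difference, BTZ minus camptothecin, was 3.27 for SEC24D, 2.18 for COPA, 1.71 for SEC24A, 1.11 for USE1 and 1.11 for COPG1. For LMAN1 the fitted difference was 1.62, and since no camptothecin array detected it, BTZ was at least 1.57-fold higher.

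LMAN2, a lectin of the early secretory route that was not tested, was detected on 2 of 4 SMIP004 arrays and on no array of another group. Its mean level was 6.31 in SMIP004 samples, 6.03 in BTZ samples, 5.20 in camptothecin samples, 5.72 in roscovitine samples and 5.34 in DMSO samples, of which the last 4 are below background.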

How the results depend on the processing

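Members called higher with SMIP004 numbered 30 (2-fold rule) to 40 (no filter on dim probes, which tests more members) over all alternatives. Over 11 settings with the same call rule, 458 of 479 member values for SMIP004 against DMSO kept their call or stayed uncalled. Another 21 gained a call, and no called member turned. Signs of members called in neither fit were not compared. With 1 sample left out in turn, calls ranged over 35 to 38 higher and 1 to 3 lower for SMIP004, 22 to 29 and 3 to 5 for BTZ, 3 to 9 and 8 to 15 for camptothecin, 0 to 14 and 0 to 7 for roscovitine, 23 to 30 and 1 to 3 for BTZ against camptothecin, and 23 to 33 and 1 to 3 for SMIP004 against BTZ. Where a group was left with 1 sample, that sample was assumed to vary like the others. No share of all genes stands beside these ranges, so they show how far the calls moved and no result about the members.

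Calls lower with SMIP004 numbered 2 with no filter on dim probes, 0 among probes detected on all 12 arrays, 3 without both roscovitine samples and 3 with only the 2 groups fitted. With arrays scaled to 1 median, camptothecin gave 2 higher and 20 lower, roscovitine 0 and 0, and BTZ against camptothecin and SMIP004 against BTZ 1 lower each. At a 2-fold change with an unadjusted p of 0.05 or less, the counts were 16 higher and 1 lower for BTZ, 2 and 5 for camptothecin, 0 and 0 for roscovitine, 14 and 1 for BTZ against camptothecin, and 14 and 0 for SMIP004 against BTZ. By fold alone, without the p rule, 1546 of all 8783 genes were higher and 1760 lower with BTZ. The all-gene counts by fold were 1502 and 1513 for camptothecin and 265 and 361 for roscovitine. They were 1680 and 1827 for BTZ against camptothecin and 1129 and 844 for SMIP004 against BTZ. At an adjusted p under 0.01, camptothecin gave 3 and 8, roscovitine 0 and 0, and each direct comparison 1 lower. Roscovitine gave 5 higher with an offset of 50 and 5 among probes detected on all arrays, 2 lower with the within-sample correlation, and 0 and 0 with only its 2 groups fitted. With the mean of kept probes, BTZ against camptothecin gave 1 lower, GOSR1 turned to -0.39 with camptothecin and SEC22C to 0.0613 for BTZ against camptothecin, since the further probes of both genes differ from the brightest. The cause of the other shifts was not tested. Except for the 2-fold rule, these counts have no share of all genes beside them and show only how far the calls moved.

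Samples shared only a replicate number: deviations of same-numbered samples correlated between -0.188 (SMIP004 and camptothecin) and 0.0924. With the replicate block the SMIP004 calls were 36 higher and 1 lower and roscovitine gave 0 and 0. The block ended the calls of GOSR2 and COPZ1 with camptothecin, of SEC23B, SEC24C and TMED10 for BTZ against camptothecin, and of ARCN1 and ERGIC1 for SMIP004 against BTZ.

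SEC24A, LMAN1, MCFD2, KDELR3 and ERGIC1 were detected on fewer than 12 arrays, so signal over background limits their values.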
